A study of Bos taurus with 12 samples.

Results

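The early response of the bovine corpus luteum to prostaglandin F2α (PGF2α) was read from 8 of the 12 cows of the series, by comparing the 4 cows whose tissue was taken 4 h after PGF2α with the 4 that had received saline. Membership followed the treatment label alone. All were mixed breed cows in the mid-luteal phase, labelled day 10 of the cycle, and the agent was injected intramuscularly at a luteolytic dose or replaced by saline. Per the methods, the cows were multiparous, non-lactating beef cows, and all of them, controls included, had been brought into step beforehand by earlier PGF2α injections, so the controls were not naive to the hormone. The methods give times of ovary removal that include the time of injection, but do not say which of them the saline cows of this series had. Cows carry the numbers of their labels, with C- for saline and 4H- for 4 h. Each cow gave 1 library of total RNA from the whole gland, so the cow is the replicate, and in such bulk tissue fewer cells of a type cannot be told apart from less RNA per cell. The remaining 4 cows, taken 12 h after PGF2α, entered the fit and are cited only for levels set side by side.

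PGF2α is the hormone that ends the life of the corpus luteum when pregnancy is not established. Its receptor, encoded by PTGFR, is most abundant on large luteal cells and couples to Gq, which activates phospholipase C, calcium release, protein kinase C and the MAP kinases. Immediate early genes are those that such signals switch on without new protein synthesis, and many of them encode transcription factors. Progesterone output declines early in luteolysis, and loss of vessels, entry of immune cells and cell death follow.

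No library measure passed an exact test between the groups. Total expected counts were 10263310 to 22600213 in controls and 15527149 to 22352909 at 4 h. Mitochondrially encoded transcripts held 8.94% ± 1.51 of counts in controls and 8.93% ± 1.01 at 4 h (SD, n = 4 each), and a permutation test, exact and two-sided, gave p = 0.943. The mean transcript length weighted by TPM (transcript abundance scaled to the same total in every library) was 1682 ± 41.9 and 1700 ± 54.2 bases (exact permutation p = 0.629), and the 100 most abundant genes held 30.6% ± 0.873 and 29.2% ± 0.930 of counts (p = 0.0857), where 0.0286 is the smallest p that 4 against 4 allows. None of the markers of steroidogenic luteal cells was at 0 in any group, and PTGFR and oxytocin (OXT), which mark large luteal cells, were at 1760 to 3205 and 8984 to 16158 TPM in the controls.

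PGF2α had changed 2062 of the 14481 tested genes by 4 h, which is 14.2% of them, and the larger changes were mostly increases. Changed, risen or fallen here means an adjusted p under 0.05 from edgeR's quasi-likelihood test, and values not marked TPM are log2 fold changes of 4 h over control. The 1253 genes that rose make up 8.65% of those tested and the 809 that fell make up 5.59%. Of the risers 608 changed at least 2-fold, 241 at least 4-fold and 57 at least 16-fold. Of the fallers 178 changed at least 2-fold and 26 at least 4-fold. The median change was 0.96 among risers and -0.63 among fallers, against -0.03 over all tested genes. TMM-scaled CPM (counts scaled to library size) of the groups did not overlap for 2859 genes, 19.7% of those tested, and 1825 of these were called.

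The count of fallers rested on few cows. It was 382 without control cow C-7514, 376 without 4 h cow 4H-5341, 467 without 4 h cow 4H-6456 and 473 without control cow C-7367. All calls came to 1278 and 1309 without control cow C-7514 and without 4 h cow 4H-5341. Risers made up 60.8% of the calls, and 47.8% (1107 up, 1209 down) once each library's trend with transcript length was taken out.

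**Figure D1:**
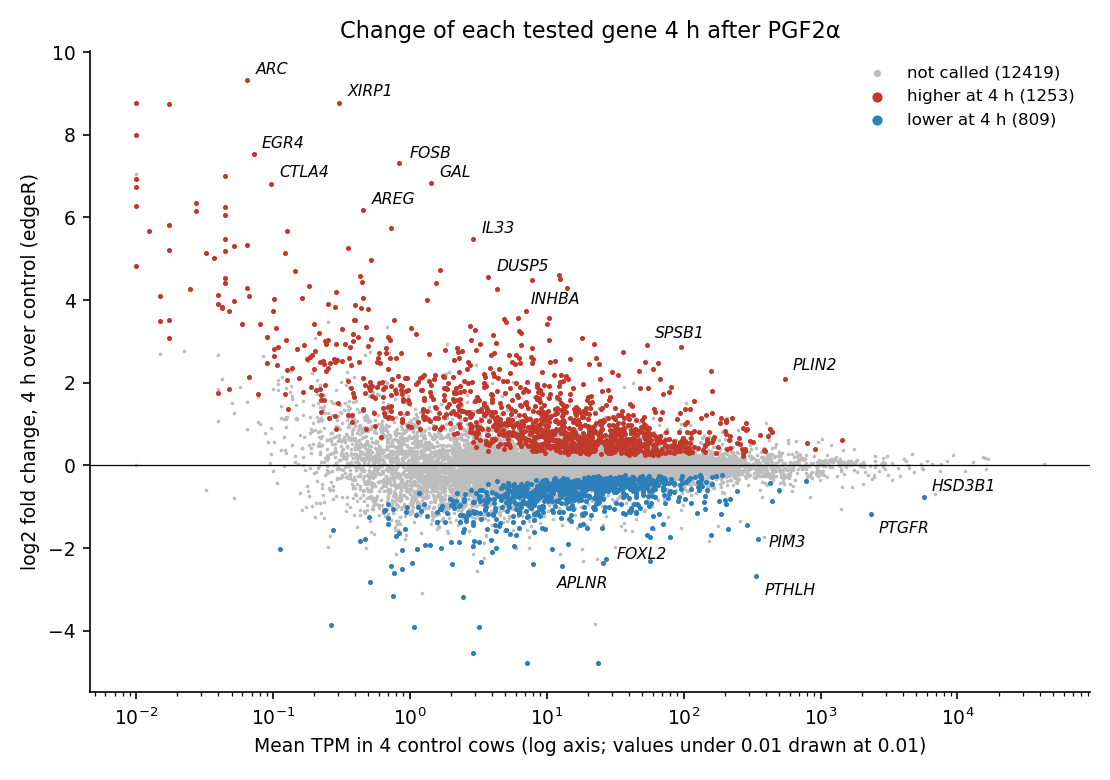
Each point is 1 of 14481 tested genes, with its mean TPM in the 4 control cows on a log axis and its log2 fold change from edgeR on the vertical axis. Red points (1253) rose and blue points (809) fell at 4 h, and the largest rises lie among genes with little transcript in controls.

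Rises were most frequent among genes with little transcript in the controls. Of 1241 tested genes with a mean under 1 TPM in controls 204 rose (16.4%) and 23 fell, and the median rise was 2.59. Many of these genes met the count minimum only through treated cows, so a rise was partly built into their being tested. Of 1365 genes at 100 TPM or more, 77 rose (5.64%) and 46 fell (3.37%), with medians of 0.62 and -0.58. Summed over all risers, transcript rose from 3.76% ± 0.161 of TPM in controls (3.54% to 3.93%) to 6.98% ± 0.710 at 4 h (6.22% to 7.92%), a description with no test because the same libraries chose the genes. The fallers went from 3.23% ± 0.330 to 1.98% ± 0.111 of TPM (SD, n = 4 each).

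The largest rises brought up genes that the mid-luteal gland hardly transcribed. ARC, known as an immediate early gene of active neurons (chromosome 14, 1741249 to 1743574 on ARS-UCD 1.2), stood at 0.08, 0, 0.04 and 0.14 TPM in the control cows and at 43.1, 47.1, 51.1 and 41.2 TPM at 4 h (log2 fold change 9.33, SE 0.40, adjusted p = 1.80e-07). XIRP1, an actin-binding protein of striated muscle (chromosome 22, 12509227 to 12518446), went from 0.15–0.46 to 79.8–177 TPM (log2 fold change 8.78, SE 0.56, adjusted p = 4.13e-06). The rule for choosing the leading rises required that the groups not overlap. At 12 h ARC and XIRP1 were at 1.09–2.1 and 3.1–9.11 TPM. The transcription factor genes EGR4 and FOSB (chromosome 18, 53074888 to 53081288) had 10.3, 12.2, 20.9 and 11.3 TPM and 119, 168, 159 and 181 TPM in the 4 h cows, where the highest control cow had 0.14 and 1.56 TPM (log2 fold change 7.53, SE 0.62, adjusted p = 2.19e-05 and log2 fold change 7.33, SE 0.35, adjusted p = 4.23e-07).

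Several of the other leading risers encode secreted signals. The peptide gene GAL rose to 65.95–222 TPM from 1.24–1.92 (log2 fold change 6.84, SE 0.55, adjusted p = 2.00e-05), and TRH, the precursor of thyrotropin-releasing hormone, to 8.03–21.3 TPM from 0.12–0.82 (log2 fold change 5.27, SE 0.89, adjusted p = 0.002398). Endothelin 2 (EDN2) and the growth factor binding protein IGFBP1 had 1 read each over all 4 controls. At 4 h they had 667 and 414 reads over the 4 cows, ratios per unit of library size of 619 (exact 95% counting interval 111 to 24499.8) and 384 (68.6 to 15220.5). Their TPM at 4 h was 6.19–21.1 and 2.96–5.8.

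The other leading risers include AREG, IL33, MMP1 and MMP12, described with their families below, and CTLA4, SLC34A2, GPRC5A, MYOM2, MYBPC3, ATP12A and ESYT3. CTLA4, an inhibitory receptor of T cells (6.82, SE 0.49, adjusted p = 9.19e-06), was at 0–0.18 TPM in controls and 8.53–12.9 at 4 h. The T cell receptor subunit genes CD3D, CD3E and CD3G had means that went from 6.63 to 2.8 TPM, from 12.8 to 5.66 TPM and from 7.83 to 3.797 TPM and did not pass (-1.23, -1.12 and -1.02). Over the alternatives these changes were as small as -0.60, -0.50 and -0.35. Control cow C-6464 had 149 TPM summed over T and NK markers, against 37.2 to 62.5 in the other controls and 30.0 to 47.0 at 4 h. The alternatives just cited include the fit without this cow, and the cause of its high level was not tested. GPRC5A, an orphan G protein-coupled receptor induced by retinoic acid, was at 0.42–0.97 and 22.6–53.02 TPM (5.75, SE 0.52, adjusted p = 4.46e-05). MYOM2 and MYBPC3, both of the sarcomere, changed by 5.47 (SE 0.90, adjusted p = 0.00205) and 5.34 (SE 0.81, adjusted p = 0.001103) and stayed low, at most 3.42 and 6.22 TPM.

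7 tested genes had no read in any control cow, so they could only rise, and 5 of them were called. The called genes were UCN2 (urocortin 2), TTC22, the keratin gene KRT6A, 20ALPHA-HSD, named for a progesterone-inactivating enzyme activity, and a gene known only by its identifier. UCN2 had 70, 126, 20 and 34 reads in the 4 h cows, at least 73.4-fold over a floor of 3 reads in all control libraries together. 20ALPHA-HSD had only 3, 5, 2 and 5 reads, at least 4.78-fold over that floor, and met the count minimum only through the 12 h cows.

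**Figure D2:**
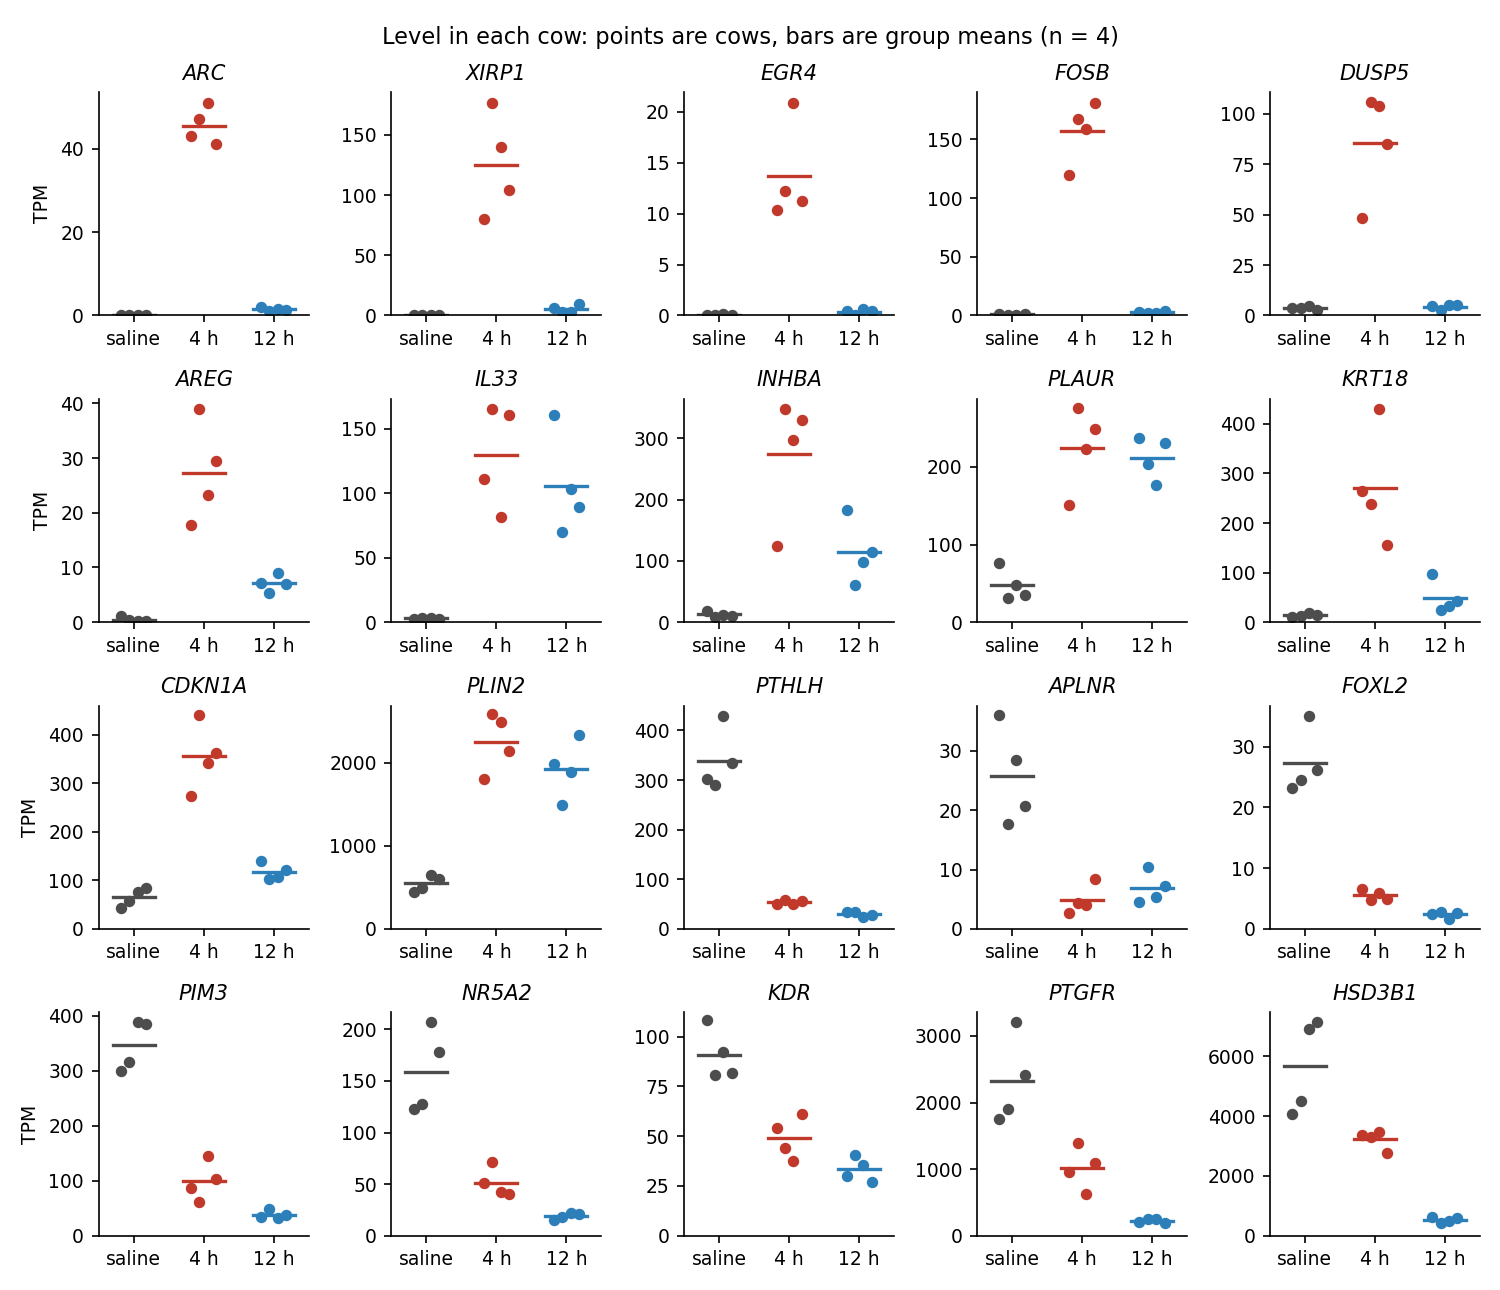
TPM of 20 named genes in each cow, with points for cows, bars for the means of 4 cows, and a linear axis from 0 in every panel. In all 20 panels the 4 cows at 4 h lie wholly above or wholly below the 4 saline cows. For the leading rises and falls among them the choice of genes required this.

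The largest falls were smaller in fold than the largest rises. PTHLH, encoding parathyroid hormone-related protein (chromosome 5, 81846047 to 81858436), dropped from 303, 289.8, 430.1 and 333 TPM to 49.4, 58.9, 49.9 and 56.95 TPM (log2 fold change -2.67, SE 0.15, adjusted p = 1.63e-06). The apelin receptor gene APLNR went from 35.95, 17.6, 28.5 and 20.7 to 2.69, 4.32, 4.02 and 8.48 TPM (log2 fold change -2.37, SE 0.34, adjusted p = 8.27e-04). FOXL2, a transcription factor of granulosa cells (chromosome 1, 130185388 to 130186521), went from 23.1–35.1 to 4.69–6.6 TPM (log2 fold change -2.27, SE 0.20, adjusted p = 4.24e-05). In each of these genes all treated cows were below the lowest control, which the rule for choosing the leading falls required.

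Kinases and regulators or members of the small GTPase family were among the leading 20 fallers. PIM3, a survival kinase, fell from 300.4–389 to 60.9–144 TPM (-1.77, SE 0.23, adjusted p = 4.68e-04). RASGRP1, a Ras activator that responds to calcium and diacylglycerol, fell from 46.1–74.2 to 11.9–21.7 TPM (-1.72, SE 0.19, adjusted p = 1.38e-04). ARHGAP20 changed by -2.38, RASEF by -1.84, RAB3A of secretory vesicles by -2.03 and FGD2 by -1.66. TNS3, which links integrins to actin, fell from 61.03–100.3 to 18.5–28.5 TPM (-1.73, SE 0.18, adjusted p = 1.08e-04). SYTL3 and SYBU, of vesicle transport, changed by -1.56 and -1.94, and SCN1A, GPR176 and BTNL9 by -1.99, -1.62 and -1.61. FGD2 and GPR176 had means of 4.63 and 2.303 TPM at 12 h, beside 5.37 ± 2.29 TPM in controls and 1.71 ± 0.226 at 4 h for the first and 2.44 ± 0.202 TPM in controls and 0.835 ± 0.587 at 4 h for the second. All of the 19 leading rises reported and 19 of the 20 leading falls kept their call under every alternative that tested them. The exception was CXCL9, taken up with the chemokines.

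By amount of transcript rather than fold, the largest gain in mean TPM among called genes was that of PLIN2, which coats lipid droplets, from 445, 498, 645 and 597 TPM to 1804, 2579, 2484 and 2139 TPM (2.103, SE 0.22, adjusted p = 9.14e-05), with every treated cow above every control. Cytoplasmic actin ACTG1 was next (1443 ± 215 TPM in controls and 2152 ± 416 at 4 h), but its call (0.62, SE 0.18, adjusted p = 0.0378) was lost on leaving out any 1 of the 8 cows except C-6464 and 4H-4291, in the fit of only these 8 cows, with limma on log2(TPM + 1) and with limma on log2(TPM + 0.1). MARCKSL1, an actin-binding protein kinase C substrate, rose from 174, 148, 150.1 and 166 TPM to 522, 846, 759 and 921 TPM (2.29, SE 0.18, adjusted p = 1.18e-05). Osteopontin (SPP1) rose from 95.9 to 683 TPM (2.88, SE 0.39, adjusted p = 6.14e-04) and SPSB1, a ubiquitin ligase adaptor, from 53.8 to 398 TPM (2.92, SE 0.23, adjusted p = 1.18e-05). The other large gains were in THBS2, TXN, HSPA5, DDX5 and CDKN1A, and DDX5, an RNA helicase, went from 445 to 754 TPM with 339.8 at 12 h (0.80, SE 0.14, adjusted p = 0.00254).

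The largest losses in mean TPM among called genes were in the steroidogenic and receptor genes HSD3B1 and PTGFR, followed by PTHLH, PIM3, TC2N, TNFAIP6, TOMM5, POLR1E, UQCRB and NR5A2. POLR1E, a subunit of RNA polymerase I, fell from 168, 179, 268 and 231 TPM to 63.1, 70.4, 79.2 and 72.8 TPM (-1.54, SE 0.20, adjusted p = 5.38e-04). UQCRB and TOMM5, of the respiratory chain and of mitochondrial import, fell less, with changes of -0.41 (SE 0.10, adjusted p = 0.0215) and -0.59 (SE 0.13, adjusted p = 0.00959). The call on UQCRB was lost without control cows C-6464, C-7367 and C-7514 or 4 h cows 4H-5341 and 4H-6456. TC2N, at 440.2 ± 91.96 TPM in controls and 240.5 ± 66.1 at 4 h (-0.86, SE 0.26, adjusted p = 0.0494), lost its call on leaving out any 1 of the 8 cows except C-4285, with RLE scaling, with no count minimum and without the mitochondrially encoded genes.

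The receptor gene PTGFR fell. PTGFR (chromosome 3, 66128213 to 66193803) was at 1759.9, 1903, 3205 and 2418 TPM in controls and 958, 1392, 629 and 1098 TPM at 4 h (log2 fold change -1.17, SE 0.24, adjusted p = 0.00722), and no treated cow reached the lowest control. Of 21 tested genes of Gq and calcium signaling 3 rose, 2 fell and 16 did not pass (median -0.10), so 23.8% were called, against 14.2% of all tested genes. The risers were PRKCD, a protein kinase C (1.22, SE 0.18, adjusted p = 8.67e-04), RCAN1, a calcineurin inhibitor that calcium induces (1.43, SE 0.32, adjusted p = 0.0128), and the calcium pump gene ATP2B1 (0.57). The G protein subunits GNAQ and GNA11 had values of 0.00 (SE 0.27, adjusted p = 0.995) and -0.10 (SE 0.10, adjusted p = 0.538). ITPR3, a calcium release channel (-0.87, SE 0.26, adjusted p = 0.0428), lost its call on leaving out any 1 of the 8 cows except C-7514 and 4H-6456, with limma on log2(TPM + 1) and with limma on log2(TPM + 0.1), so the fallers were 1 on leaving out any 1 of the 8 cows except C-7514 and 4H-6456. Leaving out 1 cow also ended the call on ATP2B1 (any 1 of the 8 cows except 4H-6455).

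Of 11 regulators of G protein signaling 3 rose and 8 did not pass. RGS16, which shortens Gq and Gi signals, had 7.63, 9.52, 3.44 and 10.6 TPM in controls and 17.5, 42.7, 31.5 and 78.8 TPM at 4 h (2.48, SE 0.47, adjusted p = 0.00457). RGS20 (1.51, SE 0.38, adjusted p = 0.0206) lost its call without control cow C-7367, and RGS1 (1.24, SE 0.36, adjusted p = 0.0367) on leaving out any 1 of the 8 cows except C-7367 and 4H-6455, with limma on log2(TPM + 1) and with limma on log2(TPM + 0.1). Of 22 cAMP signaling genes 2 rose, close to the share of all genes. They were PDE8A, which degrades cAMP, from 25.1–29.4 to 60.5–94.6 TPM (1.46, SE 0.15, adjusted p = 8.77e-05), and the kinase subunit gene PRKAR1A (0.39, SE 0.10, adjusted p = 0.0209), whose call was lost without control cows C-7367 and C-7514 or 4 h cows 4H-5341 and 4H-6456. The count of cAMP genes that rose was 1 without control cows C-7367 and C-7514 or 4 h cow 4H-5341 and 4 without 4 h cow 4H-6455.

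The immediate early genes made up the group with the highest share of risers. Of 21 listed factors outside AP-1, 12 rose and 9 did not pass, with a median of 1.04 over the list. EGR1 had 55.5, 30.1, 56.5 and 50.6 TPM in controls and 60.03, 239.8, 238 and 137 TPM at 4 h (1.86, SE 0.47, adjusted p = 0.0208), and EGR3 had 1.8, 1.61, 1.62 and 5.99 TPM and 21.7, 33.9, 33.1 and 23.6 TPM (3.37, SE 0.46, adjusted p = 6.32e-04). Cow 4H-4291 had the lowest EGR1 of the treated cows, just above the highest control, and the EGR1 call was lost without control cows C-6464 and C-7514 or 4 h cow 4H-5341. EGR2 changed by 3.52 (SE 0.65, adjusted p = 0.004202).

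The serum response factor gene SRF, which drives many immediate early genes, rose from 15.8–22.5 to 45–74.7 TPM (1.65, SE 0.21, adjusted p = 3.85e-04). CSRNP1, IER3, KLF10, KLF6 and IER2 rose by 2.25, 2.51, 1.09, 0.72 and 0.60. Among the nuclear receptors of the NR4A family NR4A1 rose (26.1, 58.9, 38.99 and 198 TPM in controls, 206, 423, 287 and 246 TPM at 4 h, 1.89, SE 0.53, adjusted p = 0.0345) and NR4A2 and NR4A3 had values of -0.15 and 0.39. Control cow C-7514 stood apart in this family, with 198 TPM of NR4A1 and 19.4 of NR4A2 where the other controls had at most 58.9 and 5.28. Without that cow NR4A2 was called higher at 4 h (0.79, adjusted p = 0.0360), and the NR4A1 call was lost on leaving out any 1 of the 8 cows except C-7514 and 4H-4291 and in the fit of only these 8 cows. MYC, KLF4 and CEBPB, also on the list, did not pass (0.70, 0.38 and -0.18).

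Of 14 AP-1 and related factors 7 rose and 7 did not pass, with a median of 0.73. Apart from FOSB, the rise was steep for ATF3, a stress-induced factor (3.66, 9.45, 6.66 and 8.6 TPM against 76.7, 119, 84.4 and 100.5 TPM, 3.75, SE 0.34, adjusted p = 4.52e-05), and for JUNB (58.9, 58.8, 54.01 and 66.4 TPM against 149.6, 349.8, 311 and 352 TPM, 2.33, SE 0.24, adjusted p = 7.90e-05). FOS had 29.4, 12.9, 13.4 and 18.7 TPM and 27.7, 98.2, 87.4 and 64.4 TPM (1.97, SE 0.41, adjusted p = 0.00803), and cow 4H-4291 lay within the control range. FOSL1, MAFF and JUND rose by 1.92, 1.86 and 0.81. FOSL2, the most abundant of the list in controls (249 ± 56.4 TPM in controls and 304 ± 93.3 at 4 h), and JUN did not pass (0.31, SE 0.23, adjusted p = 0.407 and 0.46, SE 0.17, adjusted p = 0.0892).

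Several genes that damp these signals rose. Of 18 feedback inhibitors of the MAP kinases and receptor tyrosine kinases 7 rose and 11 did not pass (median 0.21). DUSP5, a nuclear ERK phosphatase (chromosome 26, 31062738 to 31075701), went from 3.74, 3.92, 4.55 and 2.77 TPM to 48.4, 106, 104 and 85.05 TPM (log2 fold change 4.55, SE 0.32, adjusted p = 8.50e-06), with 2.81–5.17 TPM at 12 h. DUSP1, DUSP2, DUSP4 and DUSP14 rose by 1.298, 2.76, 1.24 and 1.100, and SPRED2 and SPRED3 by 1.196 and 1.13. DUSP6, SPRY1, SPRY2 and SPRY4, which respond to ERK in many cells, did not pass (0.34, -0.18, 0.70 and -0.56). NAB2, a corepressor of the EGR proteins, rose from 31.8, 21.3, 25.1 and 24.2 to 46.1, 56.98, 46.6 and 55.99 TPM (1.04, SE 0.13, adjusted p = 2.95e-04). With the cow in brackets left out there was also no call on SPRED3 (any 1 of the 8 cows except 4H-4291 and 4H-6455).

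Of 18 regulators of mRNA decay 5 rose, 1 fell and 12 did not pass. BTG1, which promotes deadenylation, rose from 134 to 291 TPM (1.16, SE 0.15, adjusted p = 3.80e-04), and ZFP36, which destabilizes cytokine mRNAs, from 24.9 to 63.2 TPM (1.38, SE 0.26, adjusted p = 0.00443). BTG3, ZC3H12A and TOB2 rose by 0.63, 1.13 and 0.46. The faller was ZC3H12C (-0.66), and the count of fallers was 0 on leaving out any 1 of the 8 cows except C-4285 and 4H-5341. Of 16 CREB coactivators, SIK kinases and inducible chromatin genes 5 rose. They were the histone demethylases KDM6B (1.602, SE 0.16, adjusted p = 7.26e-05) and KDM7A (1.58, SE 0.40, adjusted p = 0.0211), ARID5A (1.07), ARID5B (1.73, SE 0.18, adjusted p = 8.59e-05) and the Polycomb partner JARID2 (1.57, SE 0.22, adjusted p = 6.90e-04). Removal of a single cow ended the call on ZC3H12C (any 1 of the 8 cows except C-4285 and 4H-5341) and ARID5A (any 1 of the 8 cows except C-6464 and 4H-4291).

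**Figure D3:**
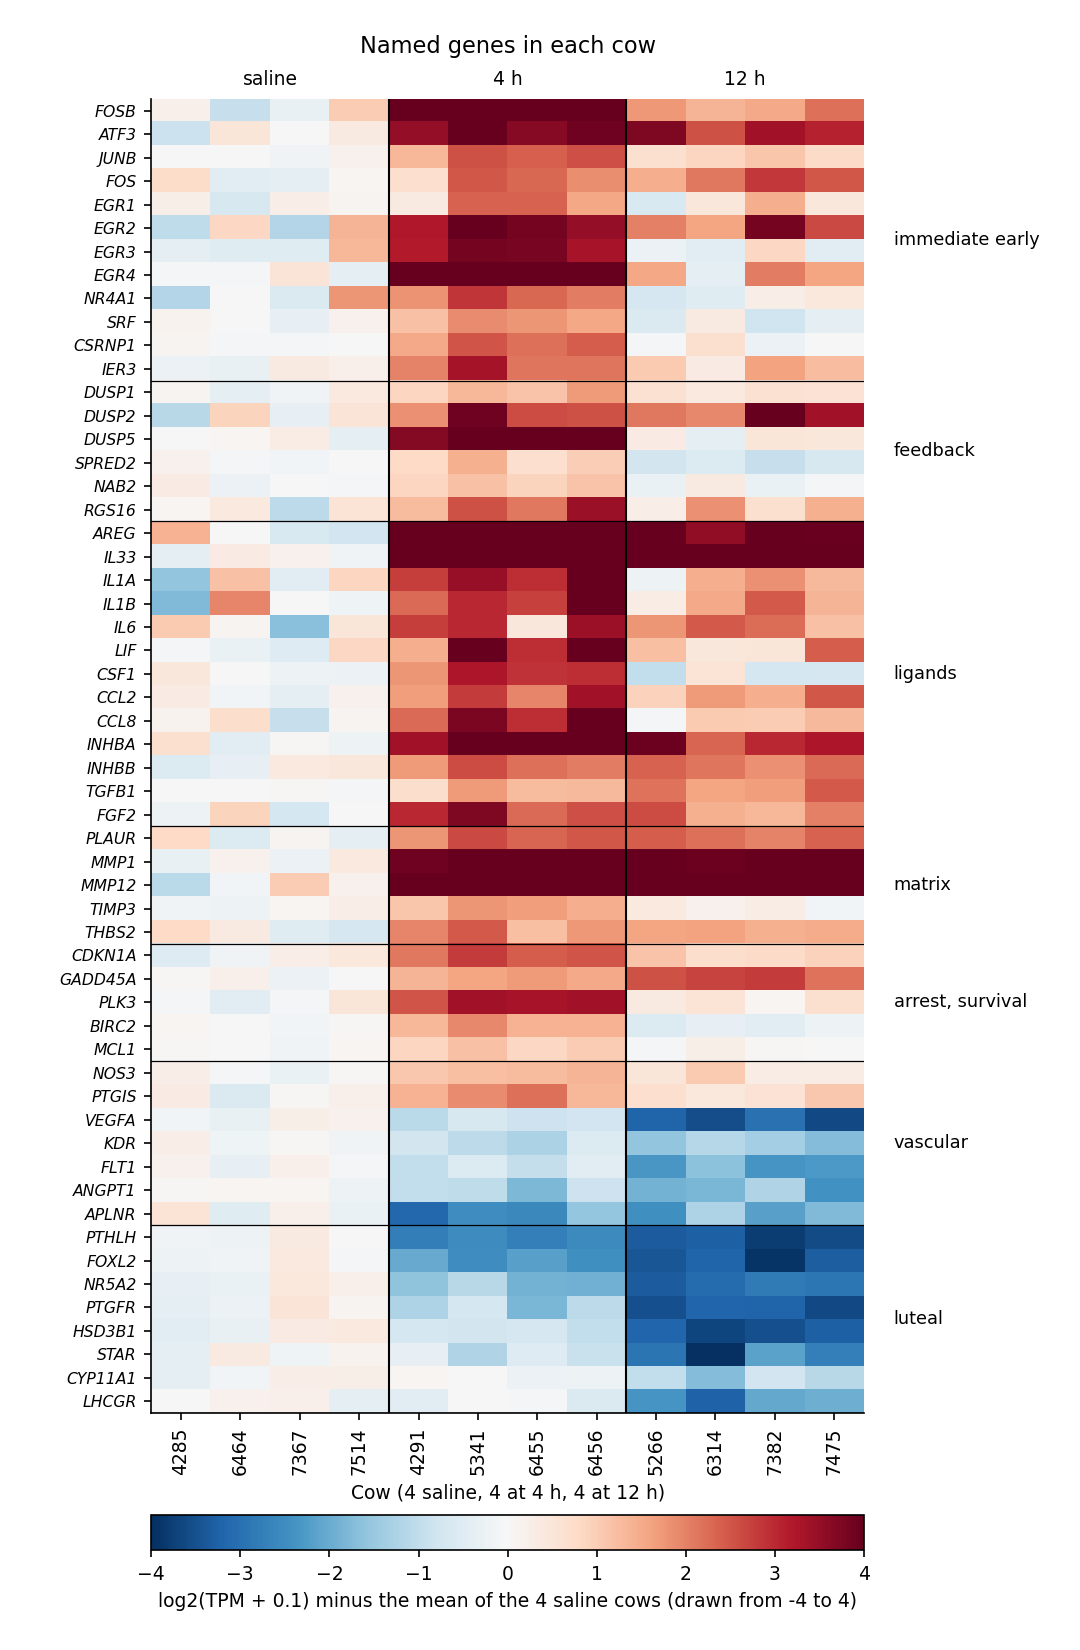
Named genes (rows) in each of the 12 cows (columns), coloured by log2(TPM + 0.1) minus the mean of the 4 saline cows, with values beyond 4 in size drawn at 4. Immediate early, feedback and ligand genes are red in the 4 h cows, palest for FOS and EGR1 in cow 4H-4291 and for IL6 in cow 4H-6455, and at 12 h DUSP5, SPRED2, CSF1 and BIRC2 are pale or blue while IL33 and MMP1 are still red.

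Of 9 EGF family genes 3 rose, AREG among the ligands and EGFR and ERBB3 among the receptors. With a count minimum of 50 the risers were 2. The ligand amphiregulin (AREG) went from 1.11, 0.35, 0.2 and 0.17 TPM to 17.8, 38.9, 23.3 and 29.4 TPM (log2 fold change 6.18, SE 0.46, adjusted p = 1.01e-05), while EREG, HBEGF, BTC and TGFA did not pass (0.53, 0.28, 0.88 and -0.78). The receptor gene EGFR rose from 3.03–4.43 to 4.38–15.1 TPM (1.27, SE 0.31, adjusted p = 0.0177). ERBB3 rose from at most 0.04 to 0.05–0.42 TPM (3.07, SE 0.77, adjusted p = 0.0208), and its call was lost without control cows C-6464 and C-7367, with limma on log2(TPM + 1) and with limma on log2(TPM + 0.1).

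In the TGF-beta, activin and BMP list 9 of 30 tested members rose, 2 fell and 19 did not pass, with a median of 0.45. INHBA, the activin A subunit (chromosome 4, 79288772 to 79302445), rose from 18.7, 8.78, 12.3 and 10.3 TPM to 124, 347, 297 and 330.1 TPM (log2 fold change 4.51, SE 0.46, adjusted p = 7.63e-05), and INHBB from 9.02, 10.7, 17.6 and 18.4 TPM to 43.9, 81.2, 62.2 and 54.8 TPM (log2 fold change 2.14, SE 0.27, adjusted p = 3.47e-04). Cow 4H-4291 had the lowest INHBA of the treated cows, still above every control. Follistatin (FST), which binds activin, fell (97.5, 38.4, 78.9 and 48.5 TPM against 19.6, 26.5, 27.3 and 40.3 TPM, -1.17, SE 0.28, adjusted p = 0.0169), though 4 h cow 4H-6456 lay within the control range and the call was lost without 4 h cow 4H-5341.

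The activin type I receptor ACVR1B (1.46, SE 0.19, adjusted p = 4.11e-04), SMAD3 (1.31, SE 0.22, adjusted p = 0.00209), TGFB1 (1.32, SE 0.25, adjusted p = 0.00455), SMAD7 (1.18), SKIL (0.76), BMP2 (1.87) and ACVR1 (0.46) also rose. Both SMAD7 and SKIL are inhibitors that TGF-beta itself induces. ID2, a target of BMP signals, fell from 154–254 to 83.3–138 TPM (-0.92, SE 0.21, adjusted p = 0.0116), while ID1 and ID3 did not pass (0.31 and -0.03). The fallers were 1 without 4 h cow 4H-5341. Also dependent on a cow was the call on BMP2 (any 1 of the 8 cows except 4H-4291 and 4H-6456).

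Peptide genes moved in both directions. Of 13 tested luteal and neural peptide genes 5 rose and 2 fell. Besides GAL and UCN2 the risers were the enkephalin precursor PENK, at 0.12, 0, 0 and 0.06 TPM and 3.82, 0.95, 15.1 and 1.31 TPM, TAC3 (1.75) and RLN3 (3.898). PENK had 2 reads over all controls and 323 at 4 h, a ratio of 149.97 with an exact 95% counting interval of 41.2 to 1244. RLN3 had 3 and 56 reads, a ratio of 17.3 (5.63 to 86.6). These intervals leave out the spread between cows. UCN2, PENK and RLN3 met the count minimum only through treated cows, so a rise was partly built into their being tested. With a count minimum of 50 the list had 2 risers and 1 faller, with a median of 1.03 in place of 1.41. Besides PTHLH the faller was stanniocalcin 2 (STC2), from 4.28, 1.74, 4.09 and 3.14 TPM to 0.42, 0.88, 0.72 and 0.47 TPM (-2.34, SE 0.40, adjusted p = 0.00248). OXT, the most abundant member, had 9065, 8984, 16158 and 11141 TPM and 10340.4, 11835, 9270.4 and 9454 TPM and did not pass (-0.13, SE 0.27, adjusted p = 0.801). Of 14 IGF system genes IGFBP1, IGFBP3 (1.04, SE 0.27, adjusted p = 0.0236) and IGFBP2 (1.59, SE 0.45, adjusted p = 0.03603) rose. IGFBP1 too met the count minimum only through treated cows. The call on IGFBP3 was lost without control cows C-7367 and C-7514 or 4 h cows 4H-5341 and 4H-6456, that on IGFBP2 without control cows C-6464, C-7367 and C-7514 or 4 h cows 4H-4291 and 4H-6455, in the fit of only these 8 cows, with limma on log2(TPM + 1) and with limma on log2(TPM + 0.1), and the list's count of risers was 1 without control cows C-7367 and C-7514.

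Cytokine genes held one of the highest shares of risers. Of 27 tested cytokines and receptors 14 rose and 13 did not pass, and the median of 1.17 is the highest of any function list after the peptide genes. IL33, an alarmin released by damaged cells (chromosome 8, 38472459 to 38546405), went from 2.22, 3.59, 3.26 and 2.6 TPM to 111, 165, 81.7 and 161 TPM (log2 fold change 5.47, SE 0.36, adjusted p = 5.15e-06). The macrophage growth factor CSF1 went from 10.7, 7.56, 6.64 and 6.5 TPM to 26.3, 72.9, 57.3 and 60.1 TPM (log2 fold change 2.84, SE 0.34, adjusted p = 2.94e-04), with 3.81–11.3 TPM at 12 h. The treated cows were at least 2-fold above every control for both genes.

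Members of the interleukin 1 system rose, inhibitors included. IL1A and IL1B rose to 1.95, 3.26, 2.22 and 11.04 TPM and 7.38, 12.5, 10.17 and 36.3 TPM (3.82, SE 0.77, adjusted p = 0.00666 and 2.84, SE 0.73, adjusted p = 0.0223), the antagonist IL1RN to 5.06, 20.3, 27.98 and 14.8 TPM (2.75, SE 0.58, adjusted p = 0.00861), and the receptor IL1R1 from 4.91–9.77 to 17.9–27.1 TPM (1.896, SE 0.22, adjusted p = 2.13e-04). IL1R2, a decoy receptor, rose by 2.11. The IL1B call was lost without control cows C-7367 and C-7514 or 4 h cow 4H-6456. In the IL6 family IL6, LIF, OSM and CLCF1 rose by 2.73, 3.52, 2.49 and 1.798, each at 8.93 TPM or less on average at 4 h, and the signal inhibitors SOCS3 and SOCS1 by 1.796 and 1.17. TNFRSF12A, the receptor of TWEAK, rose from 97.2–142 to 245–323 TPM (1.37, SE 0.17, adjusted p = 2.74e-04). TNF did not pass (0.63, SE 0.54, adjusted p = 0.481). Leaving a cow out further ended the call on IL1R2 (4 h cow 4H-5341) and SOCS1 (any 1 of the 8 cows except C-6464 and 4H-4291).

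Of 19 NF-kB genes and targets 6 rose and 13 did not pass. RIPK2 rose from 22.3, 22.1, 21.1 and 21.8 TPM to 29.6, 35.5, 32.8 and 29.7 TPM (0.58, SE 0.09, adjusted p = 0.00114), and the regulators BCL3, NFKB1, TNIP1, NFKBIB and RELB by 1.28, 0.76, 0.64, 0.55 and 0.65. Removing a cow also ended the call on NFKBIB (control cows C-4285, C-7367 and C-7514 or 4 h cows 4H-5341 and 4H-6455) and RELB (any 1 of the 8 cows except C-6464 and 4H-4291).

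Chemokine genes changed in both directions. Of 24 tested members 8 rose and 2 fell. The monocyte chemokines CCL2 and CCL8 had 28.4, 21.1, 17.4 and 25.5 TPM and 5.01, 7.47, 2.33 and 4.86 TPM in controls, and 72.4, 157, 87.8 and 233 TPM and 22.3, 62.7, 35.8 and 106 TPM at 4 h (2.61, SE 0.39, adjusted p = 0.00108 and 3.54, SE 0.49, adjusted p = 6.90e-04). CCL3, CCL4, CXCL14 and CXCL16 rose by 2.95, 1.93, 2.49 and 0.46, and the neutrophil chemokines GRO1 and CXCL8 by 3.18 and 2.49, both under 5 TPM on average. Cow 4H-6456 had the highest CCL2, CCL3, CCL8 and GRO1 of the treated cows, as it had the highest IL1A and IL1B. The same cow had the highest mean of neutrophil and macrophage markers among the treated cows, 1.89 and 4.63 log2 CPM against 0.71 to 1.14 and 3.73 to 4.07 in the others, and the part of these markers in the chemokine and interleukin values was not tested. The count of chemokines that rose was 4 without control cow C-7514. Single cows also decided the call on CCL4 (control cows C-4285, C-7367 and C-7514 or 4 h cows 4H-5341 and 4H-6456), CXCL14 (control cows C-7367 and C-7514 or 4 h cow 4H-6455), CXCL16 (any 1 of the 8 cows except C-6464 and 4H-5341) and CXCL8 (control cow C-7514).

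The T cell chemokines CXCL9 and CXCL10 went the other way, and 1 control cow weighed heavily in them. CXCL9 had 15.5, 158, 20.3 and 31.7 TPM in controls and 12.97, 11.2, 8.49 and 12.9 TPM at 4 h (-2.301, SE 0.64, adjusted p = 0.0326). CXCL10 had 36.5, 153, 35.8 and 55.1 TPM and 29.8, 22.5, 14.6 and 38.6 TPM (-1.41, SE 0.43, adjusted p = 0.0459). Control cow C-6464 was far above the other controls in both, and without it neither was called. The CXCL9 call was lost without control cow C-6464 or 4 h cows 4H-4291, 4H-5341, 4H-6455 and 4H-6456, in the fit of only these 8 cows, with limma on log2(TPM + 1) and with limma on log2(TPM + 0.1), and that of CXCL10 without control cows C-6464 and C-7514 or 4 h cows 4H-4291, 4H-5341 and 4H-6455, in the fit of only these 8 cows, with limma on log2(TPM + 1) and with limma on log2(TPM + 0.1). Counted over the list, fallers were 0 without control cow C-6464 or 4 h cows 4H-4291, 4H-5341 and 4H-6455 and 1 without control cow C-7514 or 4 h cow 4H-6456. The same cow had the highest level of T and NK lymphocyte markers, a mean of 2.97 log2 CPM over 14 markers against 1.003 to 1.67 in the other controls and 0.85 to 1.38 at 4 h, and the part of these markers in the chemokine values was not tested.

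Of 27 interferon-stimulated genes 2 rose and 2 fell (median -0.31), so 14.8% were called, against 14.2% of all tested genes. ISG20, a ribonuclease, rose from 0.26–4.07 to 16.4–50.5 TPM (4.42, SE 0.65, adjusted p = 9.26e-04) and RSAD2 by 1.32. Among the fallers, the RNA sensor DDX58 (-0.65, SE 0.19, adjusted p = 0.0377) lost its call on leaving out any 1 of the 8 cows except C-4285 and 4H-6456, with limma on log2(TPM + 1) and with limma on log2(TPM + 0.1). Fallers in this list were 0 without control cow C-7514, 1 without control cow C-6464 or 4 h cows 4H-4291, 4H-5341 and 4H-6455 and 4 without control cow C-4285. Of 11 leukocyte adhesion genes F11R (0.62) and SELP (1.12) rose and CD34 (-0.89) and JAM2 (-0.59) fell. P-selectin (SELP) lost its call on leaving out any 1 of the 8 cows except C-4285 and 4H-5341 and in the fit of only these 8 cows, so the risers were 1 without control cows C-7367 and C-7514 or 4 h cows 4H-4291, 4H-6455 and 4H-6456.

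Genes of blood vessel growth changed in both directions. In the angiogenic list 4 of 22 members rose and 6 fell. Vascular endothelial growth factor A (VEGFA) fell from 198, 176, 252 and 245 TPM to 103, 139, 120.1 and 126 TPM (log2 fold change -0.81, SE 0.18, adjusted p = 0.0125), and its receptor KDR from 108, 80.9, 92.4 and 81.8 TPM to 54.1, 44.02, 37.3 and 61.2 TPM (log2 fold change -0.86, SE 0.14, adjusted p = 0.00205). All treated cows were below all controls for both. FLT1, also a VEGF receptor (-0.62, SE 0.15, adjusted p = 0.01696), ANGPT1, which steadies vessels (-1.12, SE 0.25, adjusted p = 0.0132), and FGFR2 (-1.28) fell, as did APLNR. The FLT1 call was lost without control cow C-7367. Fibroblast growth factor 2 (FGF2) rose from 5.13, 11.2, 3.66 and 6.04 TPM to 48.6, 80.5, 28.9 and 36.2 TPM (log2 fold change 2.92, SE 0.45, adjusted p = 0.00124) and FGF1 by 1.23 (SE 0.24, adjusted p = 0.00579). TEK (0.55, SE 0.15, adjusted p = 0.0302) and ANGPTL4 (1.12) completed the risers. TEK lost its call without control cows C-6464, C-7367 and C-7514 or 4 h cows 4H-6455 and 4H-6456, with limma on log2(TPM + 1) and with limma on log2(TPM + 0.1), and the count of risers was 2 without control cows C-6464, C-7367 and C-7514 or 4 h cow 4H-6455. A further loss of call on removal of a cow was seen for FGFR2 (4 h cows 4H-5341 and 4H-6456) and ANGPTL4 (any 1 of the 8 cows except 4H-4291 and 4H-6456).

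Of 16 vasoactive genes 3 rose and 13 did not pass, so 18.75% were called, and in the prostaglandin pathway 17.6%, against 14.2% of all tested genes. The endothelial nitric oxide synthase gene NOS3 rose from 21.7, 17.3, 14.9 and 18.6 TPM to 38.3, 41.7, 43.8 and 46.6 TPM (log2 fold change 1.17, SE 0.12, adjusted p = 6.84e-05), and RAMP3, a partner of the adrenomedullin receptor, by 0.59 (SE 0.13, adjusted p = 0.01098). EDN2, which met the count minimum only through treated cows, was the other. EDN1 did not pass (1.85, SE 0.63, adjusted p = 0.0724). In the prostaglandin pathway PTGIS, the prostacyclin synthase, rose from 95.8, 51.3, 79.6 and 87.3 TPM to 199, 286, 352 and 194 TPM (log2 fold change 1.77, SE 0.26, adjusted p = 9.76e-04) and PTGDS by 1.36 (SE 0.38, adjusted p = 0.0332), while PLA2G4A, the phospholipase that frees arachidonic acid, fell (-0.71, SE 0.17, adjusted p = 0.0181). The PTGDS call was lost without control cows C-6464 and C-7514 or 4 h cow 4H-6455 and in the fit of only these 8 cows, and that of PLA2G4A without control cows C-7367 and C-7514. PTGS2, the inducible cyclooxygenase, was at 0.8, 0.91, 1.08 and 0.79 TPM in controls and 0.66, 1.01, 1.58 and 1.2 TPM at 4 h and did not pass (0.34, SE 0.28, adjusted p = 0.453). The other 14 of 17 listed genes that did not pass include PTGES, PTGES2, AKR1B1 and HPGD, and the risers were 1 without control cows C-6464 and C-7514 or 4 h cow 4H-6455.

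Genes of matrix breakdown and genes of its inhibitors both rose. Of 26 tested members 9 rose and 17 did not pass (median 0.56). PLAUR, the urokinase receptor, rose from 76.7, 30.6, 47.6 and 34.8 TPM to 151, 275, 223 and 249 TPM (log2 fold change 2.297, SE 0.28, adjusted p = 2.95e-04). Control cow C-4285 had the highest level among the controls, still below every treated cow. The collagenase MMP1 reached 3.24, 12.2, 5.31 and 6.96 TPM from 0.08–0.19 (5.68, SE 0.67, adjusted p = 2.35e-04), and the elastase MMP12, which is not on the list, 8.64, 31.4, 14 and 15.5 TPM from 0.16–1.01 (4.98, SE 0.47, adjusted p = 4.91e-05). TIMP3, an inhibitor of these proteases, rose from 107, 104, 125 and 142 TPM to 253, 407, 378 and 324 TPM (1.55, SE 0.18, adjusted p = 2.49e-04). SERPINB2, ADAMTS1, ADAMTS5, MMP16 and MMP19 rose by 3.99, 0.92, 1.82, 1.06 and 0.79. TIMP2, the most abundant member, and MMP2 did not pass (0.28 and -0.24).

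Of 30 extracellular matrix genes 4 rose and 1 fell, so 16.7% were called, against 14.2% of all tested genes. Besides SPP1, thrombospondin 2 (THBS2) rose from 92.9–255 to 339–805 TPM (1.81, SE 0.31, adjusted p = 0.00258). HAS2, a hyaluronan synthase, rose from at most 0.21 to 0.45–2.16 TPM (3.72, SE 0.55, adjusted p = 9.63e-04), and PTX3 by 2.63 (SE 0.56, adjusted p = 0.00886). TNFAIP6, which links hyaluronan, fell (179.9, 142, 457 and 380.5 TPM against 109, 121, 68.2 and 125 TPM, -1.43, SE 0.33, adjusted p = 0.0137).

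In the actin cytoskeleton list 7 of 29 members rose. KRT18, a keratin of simple epithelia (chromosome 5, 26998530 to 27002595), rose from 11.3, 12.7, 17.6 and 15.3 TPM to 264, 238, 429.9 and 155 TPM (log2 fold change 4.296, SE 0.49, adjusted p = 2.06e-04) and its partner KRT8 by 1.37. Calponin (CNN1) rose from 43.6, 8.04, 7.79 and 12.7 TPM to 54.6, 159.6, 227 and 123 TPM (3.09, SE 0.60, adjusted p = 0.00537), with control cow C-4285 high. ZYX, TPM4 and FHL2 rose by 0.79, 0.89 and 1.02, and ZYX lost its call without control cow C-7367. The count of risers here was 3 without control cow C-7367 and 4 without control cow C-7514 or 4 h cows 4H-5341 and 4H-6455. Of 18 cell junction genes 5 rose, among them CDH1 (1.99, SE 0.30, adjusted p = 9.93e-04), CLDN1 (2.02, SE 0.32, adjusted p = 0.00159), GJA4 (0.80) and GJA1 (0.63). TJP3 fell (-3.86) at under 0.4 TPM in every cow of both groups. In addition, without 1 cow no call was made for KRT8 (any 1 of the 8 cows except 4H-6456), TPM4 (any 1 of the 8 cows except C-4285 and 4H-4291) and GJA1 (control cows C-6464, C-7367 and C-7514 or 4 h cow 4H-5341).

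Stress programs rose in part. In the unfolded protein and integrated stress response 7 of 27 members rose, 1 fell and 19 did not pass (median 0.14). ATF4 rose from 301, 334, 233 and 269 TPM to 484, 591, 671 and 501 TPM (1.03, SE 0.15, adjusted p = 9.22e-04) and HSPA5, the main chaperone of the endoplasmic reticulum, from 458, 481, 383 and 391 TPM to 646, 795, 709.6 and 922 TPM (0.88, SE 0.13, adjusted p = 9.12e-04). XBP1, PPP1R15A and TRIB1 rose by 0.72, 1.28 and 1.75. DDIT3, TRIB3 and CHAC1, which ATF4 can induce, did not pass (0.12, -0.09 and 0.25), and ASNS, another such target, fell (-0.43). The count of fallers was 0 on leaving out any 1 of the 8 cows except C-7367. Of the calls just given, removal of a cow ended that on ASNS (any 1 of the 8 cows except C-7367).

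Of 23 heat shock genes 7 rose and 1 fell. CRYAB, a small heat shock protein, went from 24.2, 18.1, 27.2 and 18.9 TPM to 87.03, 185, 287 and 99.2 TPM (2.94, SE 0.36, adjusted p = 2.95e-04), and DNAJA1 from 304, 316, 238 and 286 TPM to 532, 555, 429 and 505 TPM (0.85, SE 0.10, adjusted p = 2.95e-04). HSPH1, HSPB8, HSF2, HSP90AA1 and DNAJB1 rose by 0.86, 1.09, 0.42, 0.40 and 0.41. HSPA1A, which shares sequence with near-identical HSP70 copies, fell (-0.84), and fallers were 0 on leaving out any 1 of the 8 cows except C-7367 and 4H-6455 and 2 without 4 h cow 4H-6455. In the oxidative stress list 5 of 27 rose: TXNRD1 (1.23, SE 0.17, adjusted p = 6.76e-04), SRXN1 (1.15, SE 0.20, adjusted p = 0.00251), TXN (0.54, SE 0.12, adjusted p = 0.0132), NFE2L2 (0.32) and metallothionein MT2A, from 49.9–66 to 116–283 TPM (1.88, SE 0.33, adjusted p = 0.00286). HMOX1, NQO1 and SOD2 did not pass (0.65, -0.11 and -0.22), and 18.5% of the oxidative stress list was called, against 14.2% of all tested genes. Further calls ended on removal of a cow for HSP90AA1 (control cows C-7367 and C-7514 or 4 h cows 4H-5341 and 4H-6456), DNAJB1 (any 1 of the 8 cows except C-6464 and 4H-6456), HSPA1A (any 1 of the 8 cows except C-7367 and 4H-6455) and NFE2L2 (control cows C-4285, C-7367 and C-7514 or 4 h cows 4H-4291 and 4H-5341).

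Glucose uptake genes rose while most glycolytic enzymes did not pass. Of 26 genes of hypoxia and glycolysis 7 rose. The glucose transporter SLC2A1 rose from 64.7, 68.4, 72.5 and 75.4 TPM to 138, 330.4, 245 and 190.1 TPM (1.72, SE 0.25, adjusted p = 8.67e-04) and SLC2A3 by 1.19 (SE 0.16, adjusted p = 4.53e-04). Hexokinase 2 (HK2) rose by 1.79 (SE 0.34, adjusted p = 0.00482) and NDRG1 by 2.45 (SE 0.24, adjusted p = 7.02e-05), with PFKFB3, PFKFB4 and EGLN1 at 0.86, 0.73 and 0.45. GAPDH, PGK1, LDHA and PDK1 had values of -0.05, -0.24, 0.10 and -0.31. The risers were 4 without control cows C-4285, C-6464 and C-7514 or 4 h cow 4H-5341. Of 28 genes of autophagy and the lysosome 9 rose, with TFE3 (0.59, SE 0.09, adjusted p = 9.14e-04), GABARAPL1 (1.101, SE 0.22, adjusted p = 0.00716), CTSB (0.73, SE 0.17, adjusted p = 0.0165) and SQSTM1 (0.54) among them, and that count was 3 without 4 h cow 4H-5341, 4 without control cows C-7367 and C-7514 and 5 without control cows C-4285 and C-6464. Leaving out 1 cow also ended the call on PFKFB3 (any 1 of the 8 cows except 4H-4291 and 4H-6455), PFKFB4 (any 1 of the 8 cows except C-7367 and 4H-4291), EGLN1 (control cows C-4285, C-6464 and C-7514 or 4 h cow 4H-5341) and SQSTM1 (control cows C-4285, C-7367 and C-7514 or 4 h cows 4H-5341 and 4H-6456).

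Several growth arrest genes rose, and 4 cell cycle genes fell. Of 22 genes of growth arrest 8 rose and 2 fell. The cyclin-dependent kinase inhibitor CDKN1A rose from 43.9, 56.9, 76.6 and 84.7 TPM to 275, 440.3, 343 and 363 TPM (log2 fold change 2.47, SE 0.24, adjusted p = 5.73e-05), PLK3 from 6.16, 4.73, 6.09 and 8.88 TPM to 36.7, 64.95, 63.4 and 65.8 TPM (log2 fold change 3.195, SE 0.24, adjusted p = 1.01e-05) and GADD45A from 23.8–32.3 to 71.98–91.4 TPM (1.57, SE 0.14, adjusted p = 4.46e-05). GADD45G, PHLDA1, PHLDA2, CCNG2 and CDKN1B rose by 2.05, 2.08, 1.08, 0.88 and 0.44. SESN1 and CDKN2D fell (-0.94 and -0.95), with fallers at 1 without control cows C-6464 and C-7514 or 4 h cows 4H-5341 and 4H-6455. With the cow in brackets left out there was also no call on PHLDA2 (any 1 of the 8 cows except 4H-6455), CDKN1B (control cow C-7514 or 4 h cow 4H-4291) and CDKN2D (control cows C-6464 and C-7514 or 4 h cows 4H-5341 and 4H-6455).

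Of 32 cell cycle genes 4 fell and 28 did not pass, and 4 had a positive value. The share called was 12.5%, against 14.2% of all tested genes. Every call in this list was a fall, and 5.59% of all tested genes fell. Cyclin D1 (CCND1) fell from 11.2–17.7 to 2.67–5.23 TPM (-1.903, SE 0.25, adjusted p = 5.58e-04) and E2F2 from 1.68–6.84 to 0.61–1.25 TPM (-2.09, SE 0.45, adjusted p = 0.00939). MCM3 and MCM5, of the replication helicase, fell, with changes of -0.66 (SE 0.15, adjusted p = 0.0136) and -0.55 (SE 0.13, adjusted p = 0.01902), and the MCM3 call was lost with limma on log2(TPM + 1) and with limma on log2(TPM + 0.1). That on MCM5 was lost without control cow C-7514 or 4 h cow 4H-5341, with limma on log2(TPM + 1) and with limma on log2(TPM + 0.1).

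Protective genes were most of the risers in the apoptosis list, in which 6 of 29 rose and 3 fell. BIRC2, an inhibitor of apoptosis, went from 20.9, 19.3, 18.1 and 20.5 TPM to 49.2, 75.2, 52.2 and 51.7 TPM (log2 fold change 1.58, SE 0.13, adjusted p = 2.19e-05) and MCL1 from 106, 104, 93.2 and 109 TPM to 188, 229, 183 and 209 TPM (log2 fold change 1.01, SE 0.09, adjusted p = 3.43e-05). CFLAR and BCL2L1, also protective, rose by 0.66 and 0.48, TNFRSF1A, the TNF receptor, by 0.42, and the pro-apoptotic PMAIP1 by 1.29. The pro-apoptotic DIABLO, BAK1 and FASLG fell (-0.34, -0.40 and -0.94). None of the tested caspase genes passed, and their values were all below 0. The count of risers was 3 without 4 h cow 4H-5341. Removal of a single cow ended the call on CFLAR (4 h cow 4H-5341), BCL2L1 (any 1 of the 8 cows except C-4285 and 4H-4291), PMAIP1 (control cows C-4285, C-7367 and C-7514 or 4 h cows 4H-5341 and 4H-6456) and FASLG (any 1 of the 8 cows except C-7367 and 4H-6456).

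Steroidogenic genes changed in both directions. Of 21 tested genes 3 rose, 2 fell and 16 did not pass (median -0.07), so 23.8% were called, against 14.2% of all tested genes. HSD3B1, which makes progesterone from pregnenolone, had 4089.8, 4510.4, 6917 and 7144 TPM in controls and 3379, 3313, 3470.2 and 2775 TPM at 4 h (log2 fold change -0.78, SE 0.23, adjusted p = 0.0406). Every treated cow was below every control, but the call was lost on leaving out any 1 of the 8 cows except C-4285 and C-6464 and in the fit of only these 8 cows. STAR, which brings cholesterol into mitochondria, had 5318, 8752, 6052 and 7527 TPM and 5350.2, 2919, 4750.4 and 3667 TPM and did not pass (-0.70, SE 0.36, adjusted p = 0.214). CYP11A1, which makes pregnenolone, had 4223, 4991, 6518 and 6388 TPM and 5775, 5509, 4676 and 4729.9 TPM (-0.07, SE 0.24, adjusted p = 0.876), and the sign of its change turned without control cow C-7367 (0.04) and without control cow C-7514 (0.01). The high density lipoprotein receptor gene SCARB1 was at 5412 ± 1001 TPM in controls and 5446 ± 589.5 at 4 h (0.04, SE 0.23, adjusted p = 0.938). LIPE, the hormone-sensitive lipase, did not pass (-0.20, SE 0.29, adjusted p = 0.697).

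The risers include genes of cholesterol handling. POR, the electron donor of the P450 enzymes, rose from 96.5, 96.5, 104 and 103 TPM to 170.2, 137, 143 and 141 TPM (0.59, SE 0.15, adjusted p = 0.0205), and SOAT1, which esterifies cholesterol, from 80.98, 109.8, 98.5 and 108 TPM to 143, 155, 137 and 133 TPM (0.55, SE 0.14). NPC1, which exports cholesterol from lysosomes, rose by 0.50 (SE 0.14, adjusted p = 0.0348) and CYP19A1, the aromatase, fell (-1.01, SE 0.28, adjusted p = 0.0308). The SOAT1 call was lost without control cow C-7367 or 4 h cow 4H-5341, that on NPC1 on leaving out any 1 of the 8 cows except C-7367 and 4H-6456 and with the transcript length offset, and that on CYP19A1 without control cows C-7367 and C-7514 or 4 h cows 4H-4291, 4H-6455 and 4H-6456 and with limma on log2(TPM + 0.1). Risers were 1 without 4 h cow 4H-5341, and fallers 0 without control cows C-7367 and C-7514 or 4 h cows 4H-4291, 4H-6455 and 4H-6456 and 1 without 4 h cow 4H-5341.

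Of 12 luteotropic and steroid hormone receptors 2 fell and 10 did not pass, so 16.7% were called, against 14.2% of all tested genes. The estrogen receptor ESR1 had 8.11, 13.8, 16.4 and 14.1 TPM and 8.44, 6.23, 4.75 and 4.32 TPM (-1.11, SE 0.24, adjusted p = 0.0103) and the prolactin receptor PRLR 7.23, 7.35, 7.22 and 12.4 TPM and 2.62, 4.73, 3.11 and 4.99 TPM (-1.13, SE 0.29, adjusted p = 0.0225). ESR1 overlapped between groups, and PRLR lost its call without control cow C-7514 or 4 h cows 4H-4291 and 4H-6455, so the count of fallers was 1 without control cow C-7514 or 4 h cows 4H-4291 and 4H-6455. LHCGR, the luteinizing hormone receptor, had 103, 117, 120.03 and 80.1 TPM and 76.4, 105, 99.8 and 69.1 TPM and did not pass (-0.21, SE 0.29, adjusted p = 0.6703).

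Among 19 gonadal transcription factors 7 rose and 2 fell. Beside FOXL2, the faller was NR5A2, an orphan receptor that drives steroidogenic genes, from 123, 128, 207 and 178 TPM to 51.3, 71.4, 42.2 and 40.6 TPM (log2 fold change -1.68, SE 0.22, adjusted p = 4.68e-04). SOX4 rose from 8.15, 5.2, 7.38 and 6.19 TPM to 13.4, 38.4, 18.9 and 17.9 TPM (1.77, SE 0.31, adjusted p = 0.00325), and TCF21, WT1, ZFPM1, FOXO1 and GATA6 by 1.63, 0.79, 0.74, 0.52 and 0.46. SOX9 was called (3.03, SE 0.82, adjusted p = 0.0289) at 1.06 TPM or less, and the call was lost without control cows C-6464, C-7367 and C-7514 or 4 h cows 4H-5341 and 4H-6455 and with limma on log2(TPM + 1). The count of risers was 2 without control cow C-7367, 3 without 4 h cow 4H-6455 and 4 without control cow C-7514 or 4 h cow 4H-5341. Lipid droplet coat genes gave PLIN2 and CIDEB (1.599, SE 0.46, adjusted p = 0.0382) as risers of 6 tested, and the CIDEB call was lost without control cows C-6464 and C-7367 or 4 h cows 4H-5341 and 4H-6455 and in the fit of only these 8 cows. Also dependent on a cow was the call on TCF21 (control cows C-7367 and C-7514 or 4 h cow 4H-6455), WT1 (control cows C-7367 and C-7514 or 4 h cows 4H-4291 and 4H-6455), FOXO1 (control cow C-7367 or 4 h cows 4H-4291 and 4H-5341) and GATA6 (any 1 of the 8 cows except C-7514 and 4H-4291).

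Ribosomal, respiratory chain and proteasome genes had medians between -0.21 and 0.03. The share called, beside 14.2% of all tested genes, was 1.27% of cytosolic and 12.3% of mitochondrial ribosomal protein genes. It was 2.53% of respiratory chain and 2.70% of proteasome genes. Every call in these families was a fall, and 5.59% of all tested genes fell. Of 79 cytosolic ribosomal protein genes 1 fell, with a count of 0 on leaving out any 1 of the 8 cows except C-4285, and the median was 0.03. Of 73 mitochondrial ribosomal protein genes 9 fell and 7 had a positive value (median -0.19), and the count of fallers was 1 without control cow C-7514 or 4 h cow 4H-5341, 2 without 4 h cow 4H-6456, 3 without control cow C-7367 and 4 without control cow C-6464. Nuclear-encoded respiratory chain genes had a median of -0.21, with 2 of 79 fallen and 1 positive. The fallen were 0 without control cows C-6464 and C-7514 or 4 h cows 4H-5341 and 4H-6456 and 1 without control cows C-4285 and C-7367 or 4 h cow 4H-4291, and 10 with limma on log2(TPM + 1). Of 37 proteasome genes 1 fell (median -0.12), a count of 0 without 4 h cow 4H-5341 and 2 without control cows C-4285 and C-7367. Solute carriers gave 24 risers and 13 fallers of 223 (16.6% called), and zinc finger genes 15 and 15 of 251 (12.0% called), against 14.2% of all tested genes. The solute carrier fallers were 3 without 4 h cow 4H-5341, 5 without control cows C-7367 and C-7514 or 4 h cow 4H-6455, 6 without 4 h cow 4H-4291, 7 without control cow C-4285 and 8 without 4 h cow 4H-6456. The zinc finger risers were 6 without control cow C-7367, 7 without control cow C-7514 and 9 without 4 h cow 4H-5341, and the fallers 4 without 4 h cow 4H-5341, 6 without control cow C-7514, 8 without 4 h cow 4H-6456 and 9 without control cow C-4285. Histone genes, whose near-identical copies share reads, gave 6 risers and 2 fallers of 24 (median 0.53), with risers at 3 without control cows C-7367 and C-7514 or 4 h cows 4H-4291 and 4H-6456 and at 1 (median -0.03) with a count minimum of 50, and fallers at 0 without control cow C-7367 and 1 on leaving out any 1 of the 8 cows except C-7367 and 4H-6455.

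The shares called, beside 14.2% of all tested genes, were 26.7% of Notch genes, 23.1% of genes of glucocorticoid response, 16.7% of guidance genes, 12% of WNT genes and 6.25% of clock genes. Of 15 Notch genes HES4 (2.51, SE 0.33, adjusted p = 4.47e-04), HEYL (1.06) and NOTCH1 (0.54) rose and HEY2 (-0.78) fell. HEYL lost its call without control cow C-7367 and NOTCH1 without control cows C-6464, C-7367 and C-7514 or 4 h cows 4H-5341 and 4H-6456, in the fit of only these 8 cows, with limma on log2(TPM + 1) and with limma on log2(TPM + 0.1), and the count of risers was 1 without control cow C-7367. Of 24 guidance genes SEMA6A (1.56, SE 0.22, adjusted p = 7.18e-04), SEMA7A (0.74) and EFNB2 (0.90) rose and the semaphorin receptor PLXNA2 (-1.16, SE 0.17, adjusted p = 0.001102) fell, and the risers were 5 without control cow C-4285. Of 25 WNT genes TCF7L2 (0.47), WNT4 (4.402) and LRP6 (0.91) were called, and the count was 0 without control cow C-7514 and 1 without control cows C-6464 and C-7367 or 4 h cow 4H-4291. Of 16 clock genes BHLHE40 rose from 15.9–44.6 to 58.9–131 TPM (2.102, SE 0.36, adjusted p = 0.00264), and the risers were 2 without 4 h cow 4H-6455. Among 13 genes of glucocorticoid response DUSP1 and MT2A rose and TSC22D3 fell (-0.61, SE 0.17, adjusted p = 0.0291), the last call being lost on leaving out any 1 of the 8 cows except C-4285 and 4H-6455. Leaving a cow out further ended the call on HEY2 (any 1 of the 8 cows except C-6464 and 4H-6455), EFNB2 (control cows C-6464, C-7367 and C-7514 or 4 h cows 4H-5341 and 4H-6456), TCF7L2 (control cows C-7367 and C-7514 or 4 h cow 4H-4291), WNT4 (control cows C-4285, C-6464 and C-7514 or 4 h cow 4H-6455) and LRP6 (any 1 of the 8 cows except 4H-6455 and 4H-6456).

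**Figure D4:**
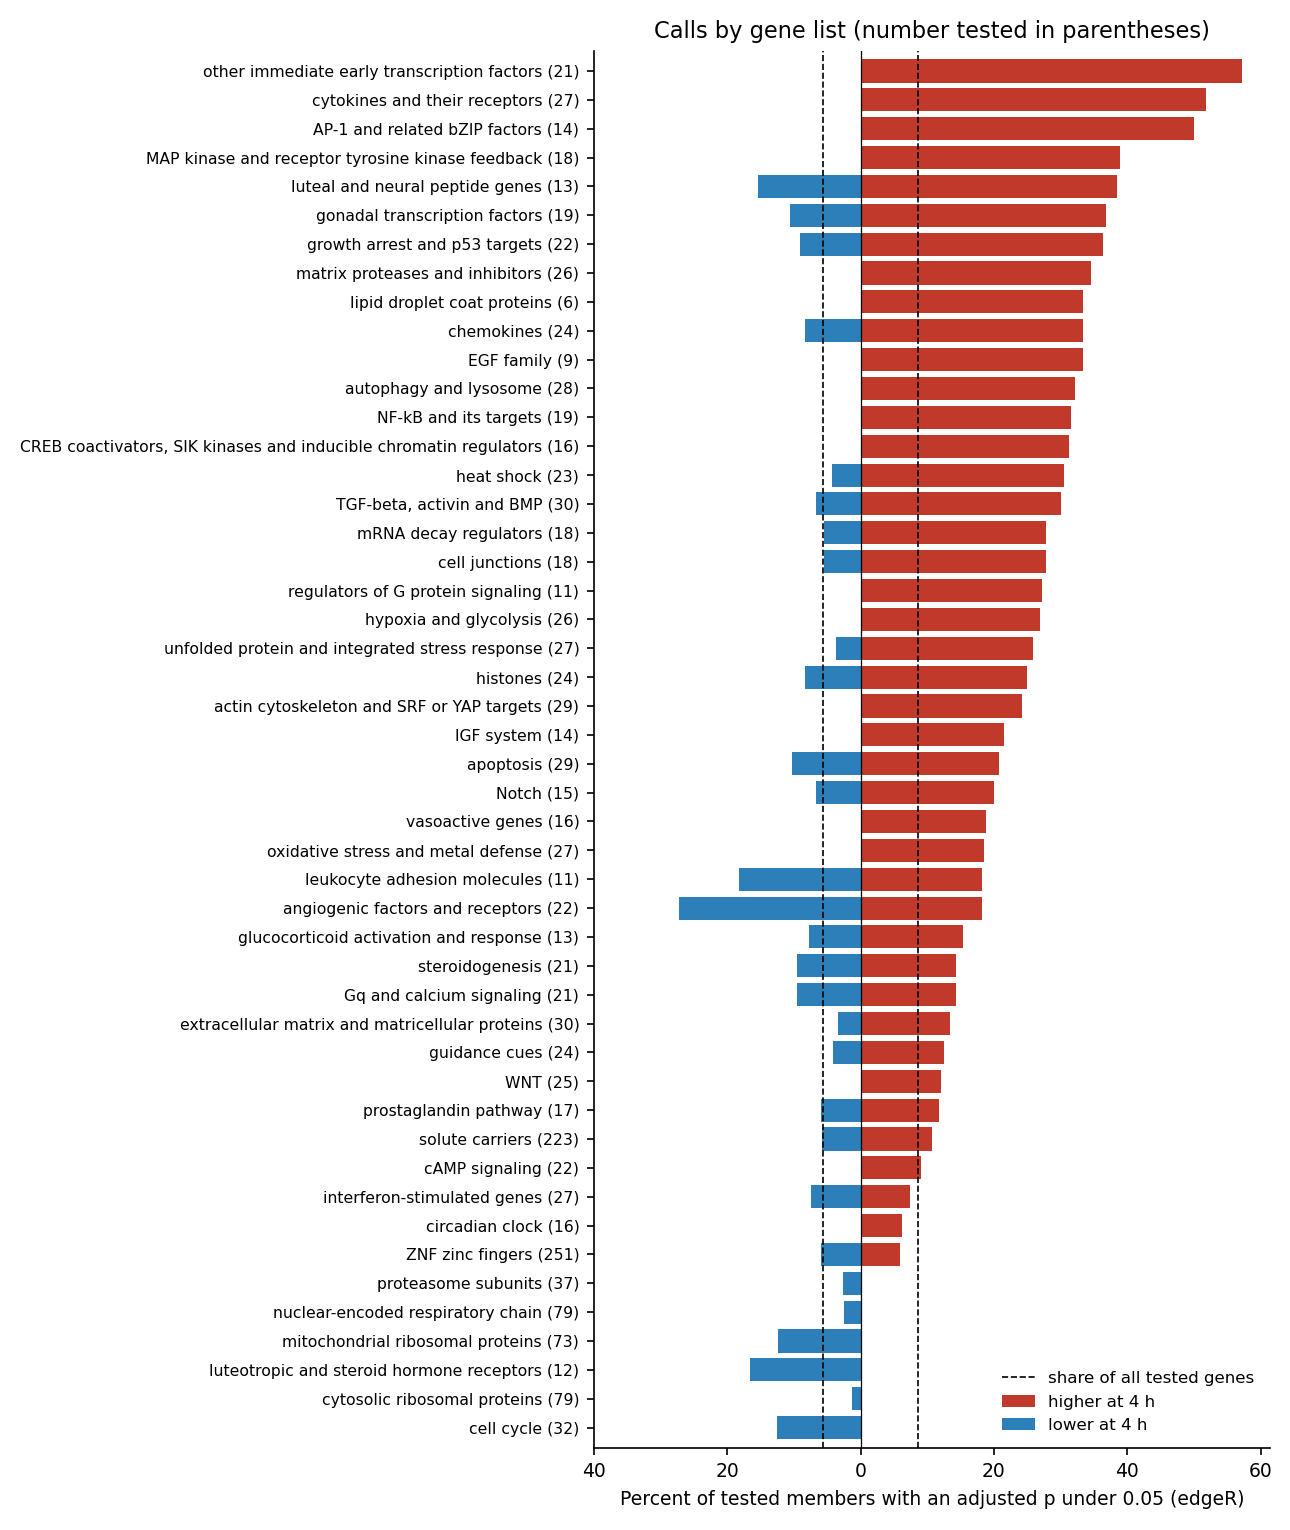
Share of each list's tested members (number in parentheses) that rose, to the right, or fell, to the left, with dashed lines at 8.65% and 5.59%, the shares over all tested genes. Immediate early factors, cytokines and AP-1 factors have the highest shares of risers, and no bar points right for hormone receptor, cell cycle, ribosomal, respiratory chain and proteasome genes.

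No list of cell type markers separated the groups in mean log2 CPM. Steroidogenic luteal markers averaged 10.6 to 11 in controls and 10.5 to 10.7 at 4 h, and 1 of 7 was called (HSD3B1). Endothelial markers averaged 5.82 to 6.46 and 6.11 to 6.65, with PECAM1 (0.96) and TEK higher and KDR and EMCN (-0.80) lower, so members of this list diverged. The EMCN call was lost without control cows C-4285 and C-7514 or 4 h cows 4H-4291, 4H-5341 and 4H-6455, risers were 1 without control cows C-6464, C-7367 and C-7514 or 4 h cow 4H-6456 and fallers 1 without control cows C-4285 and C-7514 or 4 h cows 4H-4291, 4H-5341 and 4H-6455.

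Pericyte and smooth muscle markers averaged 5.72 to 6.76 in controls and 6.36 to 6.91 at 4 h. Among these 10 markers 6 had a positive value, and only CNN1 and PDGFRB (0.71) were called, both higher. Of 10 fibroblast markers edgeR called none, DESeq2 called 0, and 1 had an unadjusted p under 0.05. Macrophage markers averaged 3.19 to 4.84 and 3.73 to 4.63, and 5 of 13 had a positive value (median -0.09). CD14 (0.90, SE 0.23, adjusted p = 0.0236) was the only called member, lost without control cows C-4285 and C-7367 or 4 h cows 4H-5341 and 4H-6456, in the fit of only these 8 cows and with limma on log2(TPM + 1). Neutrophil markers averaged -0.40 to 1.11 and 0.71 to 1.89, MMP8 was at 0 in all 8 cows, and 7 of 9 tested members had a positive value. Only S100A9 was called (11.1% of the list, against 14.2% of all tested genes). It rose from 2.5–5.66 to 9.88–60.8 TPM (2.73, SE 0.52, adjusted p = 0.00505), highest in cow 4H-6456. T and NK markers were lower in value for 13 of 14 genes (median -1.13), with LCK and CD8B called (-1.14 and -1.35) and fallers at 0 without control cow C-6464 or 4 h cows 4H-5341, 4H-6455 and 4H-6456, 1 without 4 h cow 4H-4291 and 7 without control cow C-7367. The share called was 14.3%, all of it falls, against 14.2% of all tested genes called and 5.59% fallen. Of 5 B cell markers edgeR called none and DESeq2 0, with 0 at an unadjusted p under 0.05. Of 6 tested follicular markers FOXL2, FST and CYP19A1 fell, the others did not pass, and 2 had a positive value. Their list had a summed TPM of 234 to 1003 in controls and 187 to 1826 at 4 h. CYP17A1 of theca cells was at 0 in all 8 cows. Removing a cow also ended the call on PDGFRB (control cows C-6464 and C-7367), LCK (control cow C-6464 or 4 h cows 4H-5341, 4H-6455 and 4H-6456) and CD8B (control cow C-6464 or 4 h cows 4H-4291, 4H-5341, 4H-6455 and 4H-6456).

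**Figure D5:**
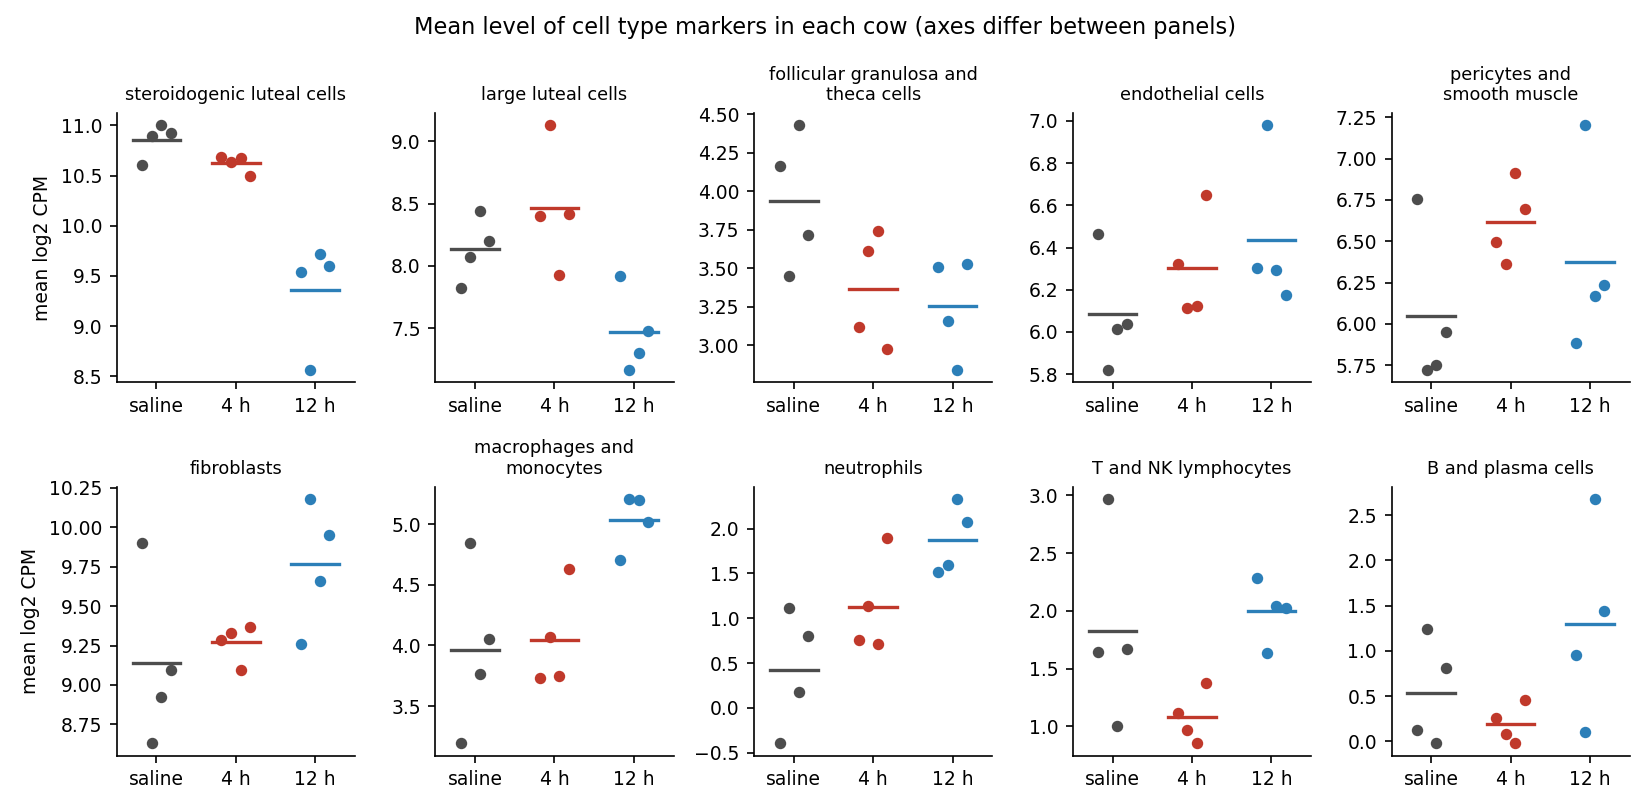
Mean log2 CPM of the markers of each cell type in every cow, with bars for group means and axes that differ between panels. Control and 4 h cows overlap in all 10 panels, and control cow C-6464 stands highest of its group for macrophage, neutrophil, lymphocyte and B cell markers.

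The median transcript length in the files was 2580 bases for risers, 2443 for fallers and 2216 for all tested genes, and the median span on ARS-UCD 1.2 was 27.3, 25.9 and 24.3 kb. Risers past 2-fold were more compact, with a median span of 20.955 kb and 33.2% of them under 10 kb, against 26.8% of all tested genes with a position. Fallers past 2-fold had a median span of 31.9 kb. These are descriptions with no test. Genes known only by an identifier were 5.27% of risers, 4.33% of fallers and 9.12% of all tested genes.

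Some of the named genes lie side by side, a point noticed after their values were seen. POLR1E, FBXO10 and TOMM5 lie within 84.4 kb of chromosome 8 (61610188 to 61694543) and all fell (-1.54, -1.67 and -0.59), whereas the next tested genes on either side, ZBTB5 (0.27, adjusted p = 0.219) and TRMT10B (-0.25, adjusted p = 0.171), did not pass. CSRNP1 and XIRP1 lie within 39.5 kb of chromosome 22 and both rose, and of their neighbors TTC21A did not pass (-0.18, adjusted p = 0.605) and CX3CR1 fell (-1.29, adjusted p = 0.0403). MMP12 and MMP1 lie within 62.4 kb of chromosome 15.

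The treated cows shared a direction and differed in size of change. For each cow, genes were called in the fit of the 12 cows with that cow left out, while the count minimum used all 12. The median rise was 0.71 in cow 4H-4291, 0.73 in cow 4H-6455, 0.92 in cow 4H-6456 and 1.19 in cow 4H-5341. The share of these genes above the control mean was 92.1% to 98.7%. The median fall was -0.49, -0.55, -0.58 and -0.73 in the same order. The controls of these differences also took part in choosing the genes, so the values describe the cows and are no test.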

How the data were processed

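RNA-seq of 12 whole corpora lutea, 1 per cow, was read from 1 table per library. Per the submitters' processing notes, reads were aligned with STAR 2.5 to ARS-UCD 1.2 and quantified with RSEM 1.3. The deposited expected counts are the authors' RSEM estimates of reads per gene and are not normalized. The deposited TPM values are the authors' RSEM abundances, divided by effective transcript length and scaled to a common total. Strand handling is not given in the sources used here, so overlapping antisense genes cannot be told apart. Libraries held 10263310 to 22600213 expected counts in the 8 cows compared, and intervals and floors cover counting error only.

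Expected counts were rounded. A gene had to reach 10 counts in 4 or more of the 12 libraries, which 14481 of 27270 genes did. These were tested with edgeR 4.0.16 (TMM scaling, quasi-likelihood F test, 3 groups in 1 fit sharing the dispersion, Benjamini-Hochberg adjustment over all tested genes) in R 4.3.3. The SE of a log2 fold change was its size divided by the square root of F. Fold changes on the TPM scale in the alternatives are of log2(TPM + pseudocount). Library measures were compared by exact permutation in scipy 1.17.1. Alternatives were RLE scaling, DESeq2 1.42.0, limma 3.58.1 on TPM with pseudocounts of 1 and 0.1, other count minimums (none and 50), only the 8 cows, no mitochondrially encoded genes, a spline offset for transcript length with 5 degrees of freedom, and each cow left out. Counts were also simulated for the same 14481 genes, with the spread of the control cows and 100 genes planted at each size of change. There edgeR recovered 69% of genes planted at a log2 change of 1 and 88% of those at 2, with 2.48% of its calls false, against 10.8% for DESeq2. Far fewer genes were planted than were called in the data, so these shares hold for the simulated setting only.

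Named genes were the 20 largest called rises and 20 largest called falls with a symbol of their own, a mean of at least 5 TMM-scaled CPM in the higher group and no overlap between groups, the 10 largest gains and 10 largest losses in mean TPM among called genes, up to 4 called members of each list by p, the members a sentence on a list needed, and 7 genes whatever their result (STAR, CYP11A1, HSD3B1, LIPE, PTGFR, LHCGR and PLIN2). Genes with no read in a control cow, neighbors on a chromosome and CTLA4's T cell comparison genes were chosen after their values were seen. The comparison, its lists and its counts were chosen with earlier results of these data known. Several genes chosen this way were left out of the text, though list counts include them. Gene positions are the files' own. Nothing in the labels says the cows were handled in blocks, and p-values measure the spread between cows.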

Additional observations from a re-analysis of the deposited data

Results flagged for a closer look

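Among the named genes 34 of 632 groups of 4 cows (5.38%) held a cow that stood apart by Dixon's 95% criterion on log2 CPM, where chance flags about 1 in 20 groups. Values are TPM, with the range of the other 3 cows of the group in brackets. The 4 h cow 4H-4291 stood apart in JUNB at 149.6 (311–352), INHBA at 124 (297–347), SLC2A3 at 18.7 (25.2–26.3), PLK3 at 36.7 (63.4–65.8), CXCL8 at 1.14 (3.96–4.43), KLF10 at 70.7 (99.3–104) and TOB2 at 27.4 (28.3–30.7). The 4 h cow 4H-5341 stood apart in ATG2A at 17.98 (13.5–15.1), CCNG2 at 25.9 (14.1–15.8), DUSP4 at 5.29 (3.67–4.13) and GJA1 at 278 (224–246). The 4 h cow 4H-6455 stood apart in JUN at 65.9 (48.1–50.4), ATP2B1 at 21.6 (40.04–43.8), CEBPB at 47.6 (37.5–38.4) and SPRY1 at 22.5 (34.8–35.9). The 4 h cow 4H-6456 stood apart in GNA11 at 35.3 (29–37) and MMP2 at 296 (207–226). Control cow C-4285 stood apart in TOMM5 at 427 (511–539), SERPINB2 at 0.64 (1.47–1.61), FGFR2 at 5.61 (2.39–2.71), NQO1 at 19.2 (22.7–24.6) and TIMP2 at 3781 (4709–5087). Control cow C-6464 stood apart in ZFPM1 at 2.94 (3.75–4.02), MMP16 at 1.35 (1.02–1.14), NFKBIB at 18.6 (13.5–14.9), SPRY4 at 11.04 (20.5–22.5) and TOB2 at 17.7 (21.6–24.3). Control cow C-7367 stood apart in EDN2 at 0.07 (the others listed at 0), IGFBP1 at 0.04 (the others listed at 0), GAL at 1.92 (1.24–1.31) and NPC1 at 59.9 (45.5–48.9). Control cow C-7514 stood apart in PRLR at 12.4 (7.22–7.35), MT2A at 66 (49.9–53.1) and EGR3 at 5.99 (1.61–1.8). For GNA11 the TPM lies within the range of the others although the log2 CPM stands apart. In cow 4H-4291 each of these genes was at the low end of its group.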

How the results depend on the processing

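No paired analysis was possible because cows of different groups share no replicate number. Leaving out 1 cow in turn gave 1278 to 1855 changed genes, 896 to 1204 risers, 376 to 676 fallers and 607 to 773 genes past 2-fold, with the lowest counts of changed genes without C-7514 and without 4H-5341. The fit of only these 8 cows, with fewer samples to estimate the spread, gave 536 fallers in place of 809. With limma on log2(TPM + 1), a scale that shrinks the fold of low genes, 462 genes passed 2-fold in place of 786. The other alternatives kept each of these counts within 1.5 times, and DESeq2 called the most genes (2750). The share of transcripts from mitochondrially encoded genes differed by -0.015 percentage points from counts and by 0.412 from TPM (exact permutation p = 0.8), and the cause was not tested. Of 272 called named genes 185 kept their call under every alternative that tested them and 87 lost it under at least 1. The sign of the log2 fold change turned for these genes, none of them called with all cows, and the cause was not tested. The first were CEBPB (-0.302 to 0.0529 over the removals of a cow, turning without C-7514), CHAC1 (-0.0504 to 0.651 over the removals of a cow, turning without 4H-6455), CYP11A1 (-0.175 to 0.0399 over the removals of a cow, turning without C-7367 and without C-7514), DDIT3 (-0.00763 to 0.201 over the removals of a cow, turning without 4H-6455) and GAPDH (-0.1198 to 0.0406 over the removals of a cow, turning without C-7367 and without C-7514). Next came GNAQ (-0.0674 by limma on log2(TPM + 1), -0.0774 by limma on log2(TPM + 0.1), -0.0508 with the transcript length offset and -0.225 to 0.202 over the removals of a cow, turning without C-4285, without C-6464 and without 4H-5341), ID3 (-0.177 to 0.108 over the removals of a cow, turning without C-4285, without C-7367, without 4H-4291 and without 4H-5341), MMP2 (-0.389 to 0.08703 over the removals of a cow, turning without C-4285), NQO1 (-0.206 to 9.00e-04 over the removals of a cow, turning without 4H-4291) and NR4A2 (0.153 by limma on log2(TPM + 1), 0.211 by limma on log2(TPM + 0.1) and -0.398 to 0.795 over the removals of a cow, turning without C-7514). The rest were OXT (-0.214 to 0.122 over the removals of a cow, turning without C-7367), SCARB1 (-0.00956 with the transcript length offset and -0.04297 to 0.163 over the removals of a cow, turning without C-4285 and without C-6464), SPRY1 (-0.286 to 0.0185 over the removals of a cow, turning without C-4285) and TRIB3 (-0.226 to 0.199 over the removals of a cow, turning without C-7514). Apart from the removal of a cow, list counts of 3 or more moved by over 1.5 times as follows, each at its extreme: gonadal transcription factor risers from 7 to 3 by limma on log2(TPM + 1), luteal and neural peptide gene risers from 5 to 2 with a count minimum of 50, angiogenic factor and receptor risers from 4 to 2 by limma on log2(TPM + 1), cell cycle fallers from 4 to 2 by limma on log2(TPM + 1), WNT risers from 3 to 0 by limma on log2(TPM + 1) or 6 by DESeq2, autophagy and lysosome risers from 9 to 5 with the transcript length offset, mitochondrial ribosomal protein fallers from 9 to 5 in the fit of only these 8 cows or 15 with the transcript length offset, ZNF zinc finger risers from 15 to 7 by limma on log2(TPM + 1) or 24 by DESeq2, solute carrier fallers from 13 to 5 in the fit of only these 8 cows and histone risers from 6 to 1 with a count minimum of 50. Leaving out a cow moved the count of fallers by a larger factor than that of risers, and for genes under 1 TPM few reads limit the precision of a fold.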
